A study of Mus musculus with 2 samples.

Results

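The 39 protein-coding Hox genes of the mouse were examined in total RNA of the embryonic heart. They were chosen by symbol alone, as every protein-coding gene whose name is Hox, a cluster letter from a to d and a paralogue number. They were found by identifier in both gene files, among 21474 protein-coding genes. The samples were hearts of B6NCrl mouse embryos at embryonic day 13.5, from pools of both sexes, labelled healthy and given no treatment. There were 2 libraries, biological replicates 1 and 2 of 1 group, each made from 10 ng of RNA above 200 nt with spike-in RNA added. The labels list both tissue samples under the same mouse donor entry, and the sources used here do not say how far the pools are independent. The design holds no second group, so levels were described and no p-value was computed.

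Hox genes encode transcription factors whose homeodomain, a DNA-binding fold encoded by the homeobox, is shared across the family. They lie in 4 clusters in which genes at the 3′ end, with low paralogue numbers, are expressed earlier and further towards the head than genes at the 5′ end. Genes with the same number in different clusters are paralogues that descend from a common ancestral gene. In the heart, progenitors of the second heart field and the cardiac neural crest arise at levels of the embryo where 3′ Hox genes are active, and retinoic acid is a known inducer of these genes.

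Since the 4 clusters are copies of an ancestral one, the homeoboxes show what separates the reads of the paralogues. The homeoboxes of Hoxa2 and Hoxb2 are shown because both members of paralogue group 2 were detected. They were read 5′ to 3′ on the coding strand from GENCODE M21 transcripts on GRCm38 (mm10). Capitals mark bases of Hoxb2 that differ from Hoxa2. They lie at chr6:52163411-52163590 (minus strand, Hoxa2) and chr11:96352985-96353164 (plus strand, Hoxb2).
Hoxa2: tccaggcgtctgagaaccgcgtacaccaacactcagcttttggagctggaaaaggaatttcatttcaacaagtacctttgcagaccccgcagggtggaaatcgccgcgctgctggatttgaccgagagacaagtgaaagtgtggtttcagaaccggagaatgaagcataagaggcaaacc
Hoxb2: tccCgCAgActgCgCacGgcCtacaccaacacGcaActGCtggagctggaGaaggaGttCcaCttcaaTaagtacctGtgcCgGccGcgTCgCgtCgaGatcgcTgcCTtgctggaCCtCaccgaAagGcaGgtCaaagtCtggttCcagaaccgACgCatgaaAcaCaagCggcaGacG
Each homeobox spans 180 bases and lay within a single coding exon in all 39 genes. Hoxa2 and Hoxb2 differed at 46 positions (74.4% identity), with no identical run over 11 nt. Over all 42 pairs within paralogue groups, identity ranged from 67.2% to 93.9% with a median of 80.6%, and the longest identical run was 47 nt, between Hoxb3 and Hoxd3. A search of all annotated transcripts, on both strands, for shared windows of 50 nt showed none for Hoxa5, 0.839% of windows for Hoxb6, 1.83% for Hoxb5, 12.7% for Hoxa2 and 25.9% for Hoxb2. Windows shared with a Hox gene of another cluster were found in 5 of the 39 genes, with at most 3 windows in each.

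Levels are given as deposited TPM, a transcript abundance corrected for length and depth. A gene was called detected at 1 TPM or more in both libraries. By that rule 5 of 39 Hox genes were detected, whereas 12309 of all 21474 protein-coding genes (57.3%) were. The estimated reads summed to 36733400 in replicate 1 and 36060765 in replicate 2. For a Hox gene, 1 TPM stood for 22.7 to 77.0 reads in replicate 1 and 15.5 to 89.5 in replicate 2. All 39 genes together held 1278 and 862 estimated reads and 25.4 and 17.5 TPM (21.4 ± 5.6, SD, n = 2).

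**Figure D1:**
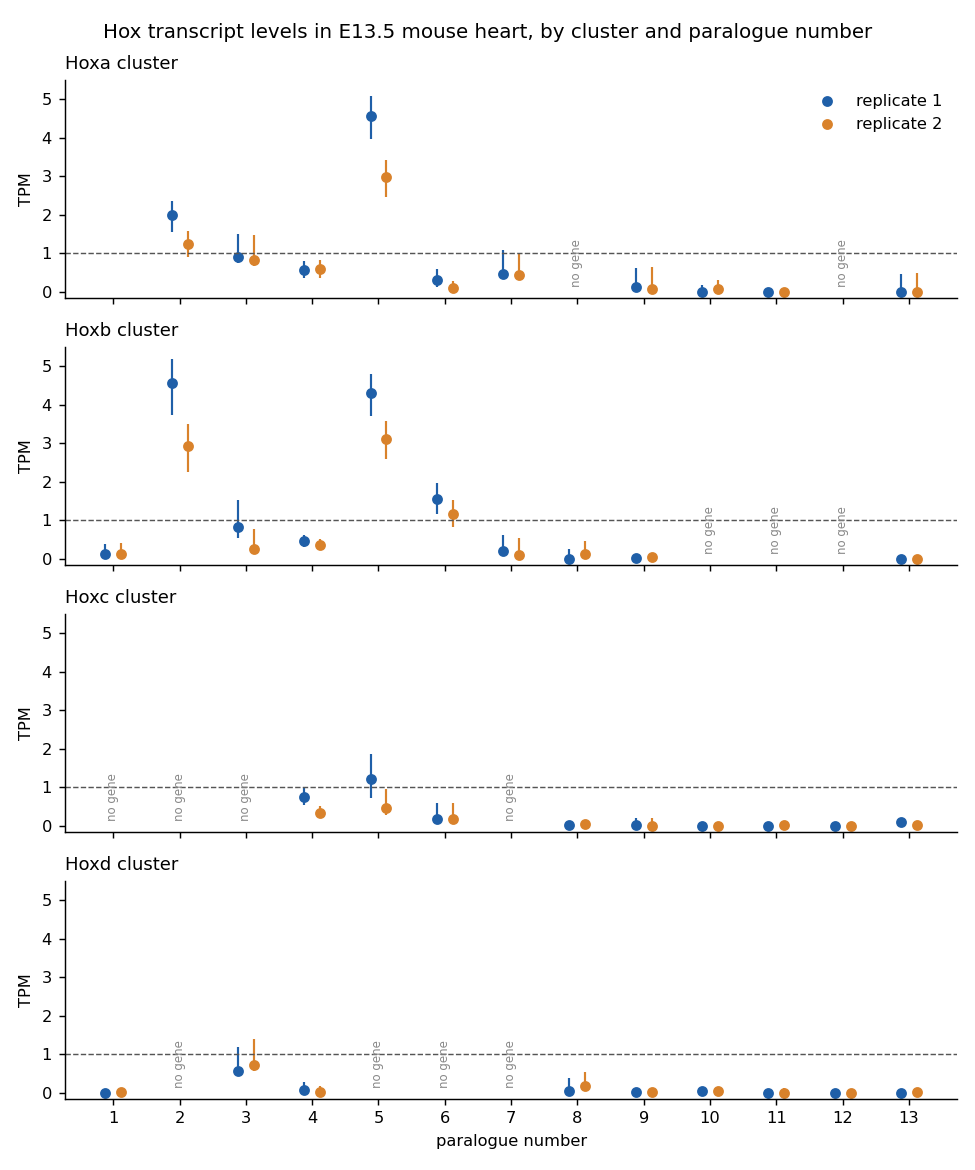
Deposited TPM (y axis) of 38 Hox genes by paralogue number (x axis) in the 4 clusters. Points are the 2 libraries, bars the deposited credibility intervals of each library and the dashed line 1 TPM. Hoxa5, Hoxb2 and Hoxb5 stand above the rest, at 2.94 to 4.57 TPM, and no gene of number 7 or higher exceeds 0.47 TPM.

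Hoxa5, a gene required for normal lung and axial skeleton development, had the highest mean level. It stood at 4.57 TPM (238 reads) in replicate 1 and 2.98 TPM (145 reads) in replicate 2, a mean of 3.78 ± 1.12 (SD, n = 2). The gene lies at chr6:52201754-52204587 on the minus strand. Hoxb2, which acts in hindbrain segments and neural crest, stood at 4.57 and 2.94 TPM (229 and 144 reads), a mean of 3.75 ± 1.15. It lies at chr11:96350525-96354012 on the plus strand. Hoxb5, known from enteric neural crest and lung, stood at 4.30 and 3.12 TPM (229 and 157 reads), a mean of 3.71 ± 0.834. It lies at chr11:96303336-96306121 on the plus strand. These 3 genes could not be ordered, since their ranges over the libraries overlapped and their order differed between the libraries. Of the 21474 protein-coding genes, 10264 (47.8%) had a higher mean TPM than Hoxa5. That number stands beside 12309 protein-coding genes detected in both libraries.

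The other 2 detected genes were lower. Hoxa2, which sets the identity of the second pharyngeal arch, stood at 1.99 and 1.25 TPM (92 and 54 reads), a mean of 1.62 ± 0.523. It lies at chr6:52162417-52164831 on the minus strand. Hoxb6, known from lateral plate mesoderm, stood at 1.55 and 1.16 TPM (58 and 39 reads), a mean of 1.35 ± 0.276. It lies at chr11:96292476-96301569 on the plus strand. Both libraries of Hoxb5 were above both libraries of Hoxa2, while the ranges of Hoxa2 and Hoxb6 overlapped. Together the 5 detected genes held 66.9% of Hox TPM in replicate 1 and 65.6% in replicate 2.

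The threshold passes through a continuous range. The detected genes nearest to it were Hoxb6, Hoxa2 and Hoxb5, and Hoxa3 and Hoxc5 were among those nearest below it by mean. Hoxa3, needed for the derivatives of the third pharyngeal arch, including the carotid artery, stood at 0.91 and 0.82 TPM. Hoxc5 stood at 1.22 and 0.46 TPM. Of the 39 genes, 2 were at 1 TPM or more in replicate 1 only, Hoxc5 among them, and 32 genes were below 1 TPM in both libraries. When all 39 genes were ranked by mean, 36 of the 38 neighbouring pairs in that order had overlapping ranges. The separate ones were Hoxb5 above Hoxa2, and Hoxb4 above Hoxa6. Ranking by mean sets close values side by side, and genes at 0 in both libraries were counted as overlapping. The count of overlaps is therefore a description and no test.

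Detected genes lay in the Hoxa and Hoxb clusters. The Hoxa cluster (11 genes, on chromosome 6) summed to 10.2 and 7.11 TPM, and the Hoxb cluster (10 genes, chr11:96194316-96368256) to 12.1 and 8.24 TPM. The Hoxc cluster (9 genes, chr15:102921103-103036852) summed to 2.31 and 1.06 TPM, and the Hoxd cluster (9 genes, chr2:74668310-74765142) to 0.79 and 1.05 TPM. The Hoxa and Hoxb sums were above the Hoxc and Hoxd sums in both libraries, and the Hoxa and Hoxb ranges overlapped. The lowest Hoxc sum and the highest Hoxd sum, both in replicate 2, were nearly equal. The highest gene of the Hoxd cluster was Hoxd3, at 0.57 and 0.72 TPM. Of 42 pairs of paralogues, 11 differed in the same direction in both libraries with credibility intervals that did not overlap in either. The Hoxa member was higher in 5 of them, the Hoxb member in 5, the Hoxc member in 1 and a Hoxd member in 0. Among the Hoxa pairs, Hoxa9 above Hoxd9 rested on 7 and 5 reads against 2 and 1. A deposited interval need not contain the TPM: for Hoxa9 in replicate 2 it was 0.108 to 0.658 at 0.08 TPM. Hoxb2 was 2.30-fold above Hoxa2 in replicate 1 and 2.35-fold in replicate 2. Hoxa5 was 3.75-fold and 6.48-fold above Hoxc5, while Hoxa5 and Hoxb5 were not separated. Hoxb6 was 5.0-fold and 12.9-fold above Hoxa6 (7 and 2 reads), and 8.16-fold and 6.44-fold above Hoxc6 (6 and 5 reads). Hoxc4 was 10.9-fold and 11-fold above Hoxd4. The Hoxd4 values behind that last ratio were only 0.07 and 0.03 TPM.

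Along the chromosome, detection stopped at paralogue 5 in the Hoxa cluster and at paralogue 6 in the Hoxb cluster. In all 4 clusters the homeoboxes followed the order of the paralogue numbers. The homeobox of Hoxa5 lay 47.1 kb from the 3′ end of a cluster of 105 kb, and that of Hoxb6 lay 67.5 kb from the 3′ end of a cluster of 174 kb. Next beyond these points were Hoxa6, at 0.31 and 0.09 TPM, and Hoxb7, at 0.20 and 0.09 TPM. Hoxa5 was 14.7-fold and 33.1-fold above Hoxa6, and Hoxb6 was 7.75-fold and 12.9-fold above Hoxb7. These ratios are imprecise, since Hoxa6 held only 7 and 2 reads and Hoxb7 only 7 and 3. No gene passed in the Hoxc and Hoxd clusters, so detection had no end there. A threshold of 2 TPM, or the lower credibility bound in place of TPM, moved the end in the Hoxb cluster to paralogue 5, and 10 reads in both libraries moved the end in the Hoxa cluster to paralogue 7.

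Detection was not continuous up to these ends. In the Hoxa cluster, Hoxa3 and Hoxa4 were below the threshold in both libraries, although Hoxa2 and Hoxa5 passed. Hoxa4 stood at 0.57 and 0.59 TPM, and Hoxa5 was 8.02-fold and 5.05-fold above it. In the Hoxb cluster, Hoxb1 stood at 0.14 TPM in both libraries, Hoxb3 at 0.83 and 0.25 TPM, and Hoxb4 at 0.46 and 0.36 TPM. Hoxb2 was 32.6-fold and 21-fold above Hoxb1 (8 and 5 reads), and Hoxb5 was 9.35-fold and 8.67-fold above Hoxb4. Among neighbours along a cluster, 5 of 9 pairs were separated by these criteria in the Hoxb cluster, against 2 of 10 in Hoxa, 0 of 8 in Hoxc and 2 of 8 in Hoxd. At a threshold of 0.5 TPM, 9 genes passed, Hoxa2 to Hoxa5 among them without a gap, while Hoxb1, Hoxb3 and Hoxb4 still failed.

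**Figure D2:**
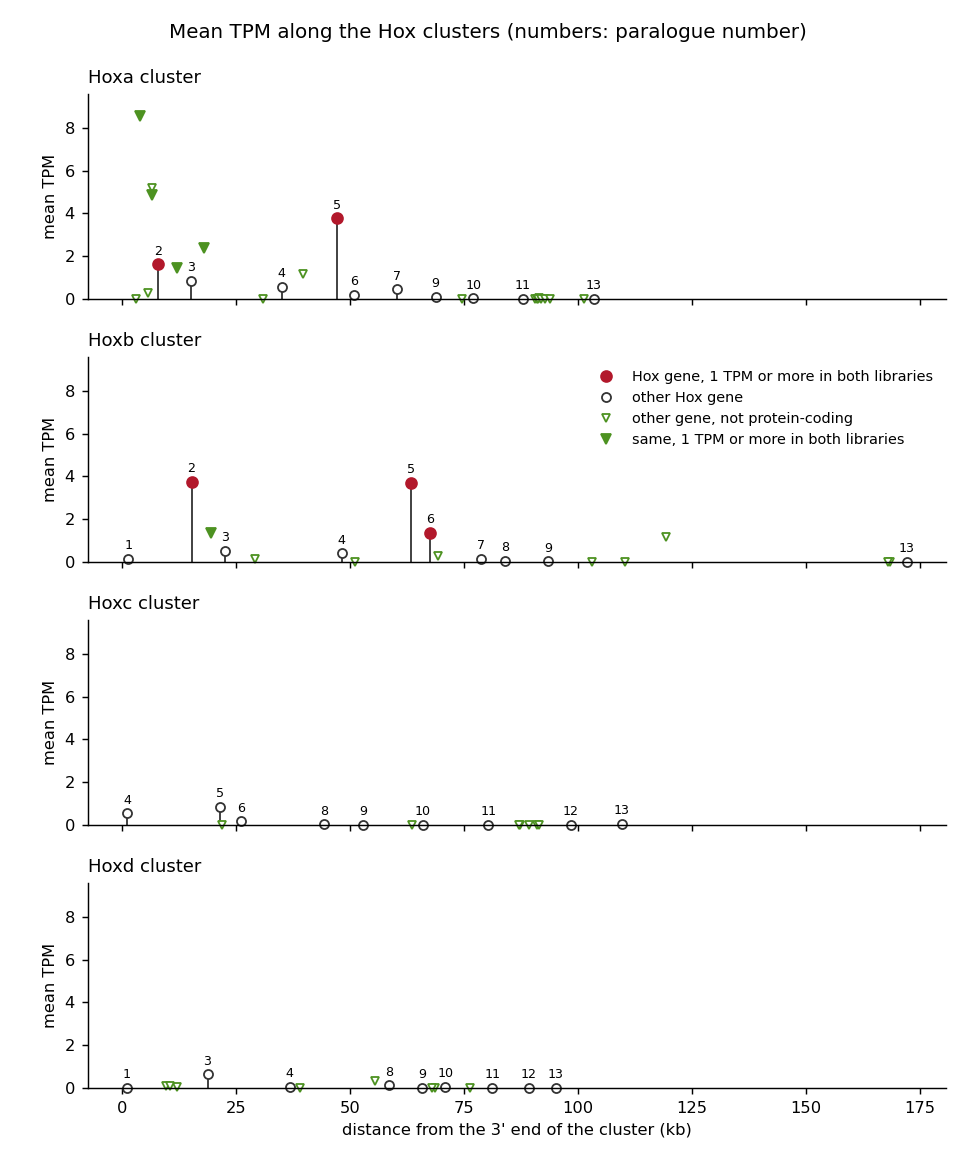
Mean TPM of the 2 libraries (y axis) against the distance in kb from the 3′ end of the cluster (x axis), with Hox genes placed at their homeobox and labelled by paralogue number, and other genes inside the clusters placed at their midpoint. Filled symbols were at 1 TPM or more in both libraries. The filled circles end at 47.1 kb in the Hoxa cluster and at 67.5 kb in the Hoxb cluster.

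By paralogue group, group 5 held the largest sum in both libraries, at 10.1 and 6.56 TPM over 3 genes. Group 2, with 2 genes, followed at 6.56 and 4.19 TPM. Groups 1 to 6 held 95.5% of Hox TPM in replicate 1 and 93.0% in replicate 2. Group 7 summed to 0.67 and 0.52 TPM and group 8 to 0.09 and 0.37 TPM. The 16 genes of groups 9 to 13, which pattern the posterior trunk, limbs and urogenital tract, summed to 0.38 and 0.33 TPM on 22 and 19 reads. The highest single value among them was 0.14 TPM, for Hoxa9 in replicate 1. No read was assigned to 6 of these genes in either library: Hoxa11, Hoxa13, Hoxb13, Hoxc10, Hoxc12 and Hoxd12. For these 6, a count of 0 allows a level of up to 0.0421 to 0.117 TPM (3 reads per library, counting error only). The deposited upper credibility bounds were higher for 2 of them, at 0.453 and 0.485 TPM for Hoxa13 and at 0.0762 and 0.0818 TPM for Hoxa11.

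Of the 39 genes, 24 had at least 2 listed transcripts. Hoxa2 and Hoxa5 had 1 transcript each. The protein-coding transcript Hoxb2-201 held 87.7% and 82.9% of the TPM of Hoxb2, and the retained-intron transcript Hoxb2-202 held the rest. Hoxb5-201 held 97.3% and 95.2%, and Hoxb6-201 held 91.4% and 100%. When the protein-coding transcripts alone were summed, 5 genes passed and they were the same 5. Below the threshold, non-coding transcripts led some genes, on few reads. The retained-intron transcript Hoxd3-206 held 96.7% of the TPM of Hoxd3 in replicate 1 and 39.6% in replicate 2, and the processed transcript Hoxc5-202, of 615 nt, held 69.0% and 30.0% of that of Hoxc5. Hoxc5 was above 1 TPM in replicate 1 through this short transcript, since its protein-coding transcript stood at 0.38 and 0.32 TPM. Other genes below the threshold showed such shares too. Protein-coding transcripts held 41.0% and 100% of the TPM of Hoxb3, and 68.1% and 18.6% of that of Hoxa7. Hoxd3, Hoxc5, Hoxb3 and Hoxa7 were chosen for this description after their values were seen.

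**Figure D3:**
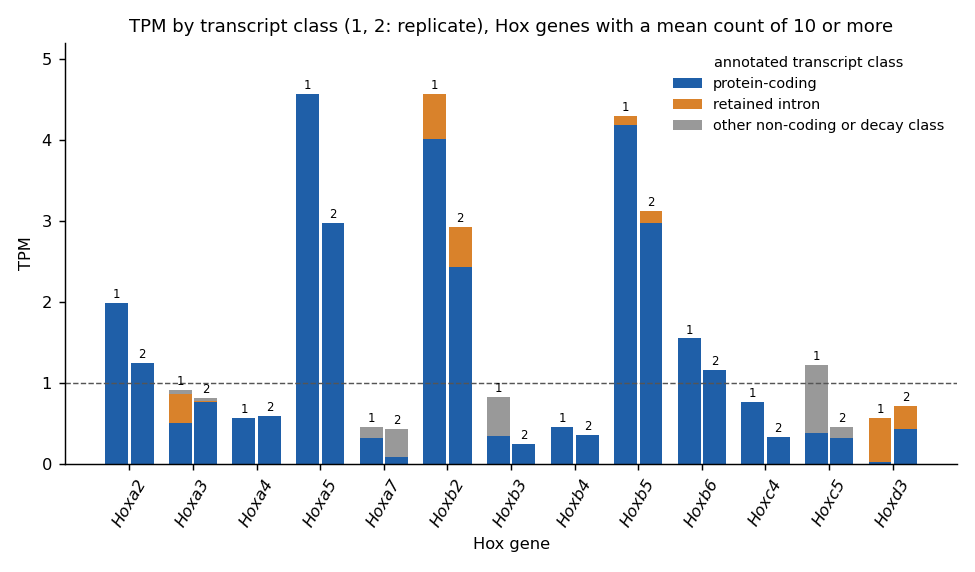
TPM (y axis) of 13 Hox genes with a mean of at least 10 reads (x axis), split by annotated transcript class, with 1 bar for each library and the dashed line at 1 TPM. Hoxa5, Hoxb2, Hoxb5, Hoxa2 and Hoxb6 are above the line in both libraries and mostly protein-coding. Hoxd3, Hoxc5 and Hoxb3 are among those that carry large shares of other classes in replicate 1.

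Reads in the clusters can belong to overlapping genes. Exons of 16 of the 39 genes overlapped an exon of another annotated gene, 9 of them on the same strand and 10 on the opposite strand. Hoxa5 and Hoxb6 had no such overlap. Hoxb2 shared 27.3% of its exonic bases with the antisense gene Hoxb3os, and Hoxb5 3.59% with Hoxb5os. Hoxa2 shared 15% with Gm28308 on the same strand. Hoxb3 shared 52.9% with Hoxb3os, and Hoxd3 and Hoxd4 shared 62.3% and 52.3% with genes on their own strand. The sources used here do not say whether the counting used strand, so the values of Hoxb2 and Hoxb3 are uncertain. Those of Hoxd3 and Hoxd4 are uncertain with or without strand, since most of their overlap is on the same strand.

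Between the outer Hox genes, the 4 clusters held 42 annotated genes that are not protein-coding, of which 5 were at 1 TPM or more in both libraries. Hotairm1, a long non-coding RNA antisense to the 3′ end of the Hoxa cluster, stood at 8.04 and 9.07 TPM (56.1 and 61 reads), above every Hox gene. Its estimated length was only 337 nt. Gm15050 stood at 3.01 and 1.77 TPM, Hoxaas2 at 1.64 and 1.22 TPM, and Hoxb3os at 1.32 and 1.42 TPM. Gm27477, an entry of 143 nt, stood at 3.88 and 5.81 TPM on 5 and 7 reads. All 5 lay in the 3′ part of the Hoxa cluster or beside Hoxb2 in the Hoxb cluster, and none of the 7 such genes in the Hoxc cluster or the 8 in the Hoxd cluster passed. Gm27868, an entry of 102 nt chosen after its values were seen, stood at 10.4 TPM on 0.91 estimated reads and at 0 TPM. The 6 microRNA genes of the clusters were listed at 0, but a library of RNA above 200 nt does not measure mature microRNAs.

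Promoter windows of 300 bases, 250 before and 50 after the start, were matched by symbol from RefSeq (GRCm38.p6) for 22 of the 39 genes, in 24 windows. The 17 members without an entry included Hoxa4, Hoxb2, Hoxb3, Hoxb5, Hoxb6, Hoxb7, Hoxb9, Hoxb13, Hoxc5, Hoxc6, Hoxc8, Hoxc9, Hoxc10, Hoxc11, Hoxc12 and Hoxc13. The sequences before the start of Hoxa5 (chr6:52204588-52204837, minus strand) and of Hoxa13 (chr6:52260881-52261130, minus strand) are shown as the detected gene with the highest mean TPM among those with an entry and a gene of the same cluster with no reads. CpG dinucleotides are in capitals.
Hoxa5: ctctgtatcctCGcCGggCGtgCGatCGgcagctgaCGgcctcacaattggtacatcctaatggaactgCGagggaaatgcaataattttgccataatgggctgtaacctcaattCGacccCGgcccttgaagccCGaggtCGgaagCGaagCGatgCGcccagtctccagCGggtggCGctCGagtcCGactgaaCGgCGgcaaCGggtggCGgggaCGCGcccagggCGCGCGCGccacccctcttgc
Hoxa13: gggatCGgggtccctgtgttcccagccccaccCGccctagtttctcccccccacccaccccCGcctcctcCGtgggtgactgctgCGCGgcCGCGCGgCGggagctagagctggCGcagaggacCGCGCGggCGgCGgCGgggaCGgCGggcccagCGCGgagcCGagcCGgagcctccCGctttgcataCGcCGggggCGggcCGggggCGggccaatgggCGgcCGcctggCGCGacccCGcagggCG
The sequence of Hoxa5 held 28 CpG and that of Hoxa13 held 35. The median over the 24 windows was 14.5 CpG (4 to 45), against 7 over the 32851 windows of the table, of which 34.6% had at least as many as the Hox median. Only 2 of these windows were of detected genes, Hoxa2 with 9 CpG and Hoxa5 with 29 over the 300 bases. The other 22 windows held 4 to 45 CpG, with Hoxa13, which had no reads, at 45. Searched on both strands, CCAAT was in 15 of 24 Hox windows (62.5%) and in 37.4% of all windows, and AGGTCA in 7 (29.2%) against 16.3%. TATAAA was in 4 (16.7%) against 13.6%, and TGACAG in 2 (8.33%) against 19.2%. These are matches of letters and were not tested.

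The libraries differed in their Hox levels. Each detected gene was lower in replicate 2 than in replicate 1. After TMM scaling of counts, 6 genes had a mean of at least 50 reads, and all 6 were lower in replicate 2, whereas 51.6% of the 12804 protein-coding genes with that many reads were lower by any amount. Among their log2 differences, replicate 2 minus replicate 1, were −0.81 for Hoxa2, −0.15 for Hoxa3, −0.76 for Hoxa5, −0.71 for Hoxb2 and −0.59 for Hoxb5. The median was −0.71, and 107 of the 12804 genes (0.836%) were at or below it. The 95% counting interval was below 0 for 5 of the 6, Hoxa3 being the exception. The share of all protein-coding genes with such an interval was not computed, so this count cannot be read as particular to Hox genes. None was 2-fold lower, as 29 of the 12804 genes (0.226%) were. With a minimum mean of 10 reads, 13 of 14 genes were lower, beside 7582 of 14657 protein-coding genes with that many reads. The exception was Hoxa7, higher by 0.18 (interval −0.82 to 1.21). The largest difference was that of Hoxc4, at −1.32 (−2.26 to −0.51), on 42 and 17 reads. Counts of all 39 genes together, 1277 and 863 after rounding, were 1.53-fold lower in replicate 2, a log2 difference of −0.61 (−0.74 to −0.49). With 1 library on each side, these intervals cover counting error only and no test of the difference is possible.

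The direction depends on the reference. Spike-ins held 11.1% of TPM in replicate 1 and 5.04% in replicate 2. With spike-in scaling the median of the 6 genes was 0.57, higher in replicate 2, while the median of the 12804 protein-coding genes was 1.28. Relative to the median protein-coding gene, the Hox median differed by −0.71 with TMM, −0.76 with TPM and −0.71 with spike-in scaling. The TMM and spike-in values had to be nearly equal, since each scaling changes all genes of a library by 1 factor. They are therefore not separate results. In bulk tissue, fewer cells that express these genes and less RNA per cell cannot be told apart.

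Marker lists of other cell types also differed between the libraries, and their part in the Hox difference was not tested. The differences below used TMM scaling. With spike-in scaling no list member with at least 50 reads on average was lower in replicate 2. The list medians in this paragraph became 1.01 for the epicardial, 0.91 for the limb and 0.98 for the lung list. In the kidney list only 1 gene, Osr1, had that many reads, and its difference became 0.74. With TMM, all 6 epicardial and mesothelial markers were lower in replicate 2 (median log2 −0.28), and their summed level was 191 and 171 TPM. Among them, Upk3b stood at 63.9 and 50.7 TPM and Wt1 at 20.3 and 18.2 TPM. Both fell by more than the list median (log2 −0.47 and −0.36 with TMM). Not every member fell in TPM. Tbx18, the lowest of the list by mean, stood at 8.17 and 8.25 TPM (log2 −0.13 with TMM), and a higher member also rose in TPM. Of the limb mesenchyme markers, 5 of 5 with enough reads were lower (median −0.38, sum 43.2 and 37.0 TPM). The highest of these, Tbx5 at 24.9 and 22.1 TPM, is also a heart gene, and the limb marker Lmx1b was near 0 at 0.01 and 0.02 TPM. Of the lung and foregut markers, 5 of 6 were lower (median −0.30, sum 31.0 and 29.3 TPM). Nkx2-1, which defines lung and thyroid epithelium, stood at 2.21 and 1.31 TPM, and Sftpc, a lung surfactant gene, at 7.89 and 9.37 TPM. In the kidney and urogenital list, Osr1 stood at 14.9 and 11.3 TPM (log2 −0.55), Pax2 was at 0, and the list summed to 15.4 and 11.5 TPM.

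Liver markers were higher in replicate 2 with both scalings. All 7 with enough reads were higher in replicate 2 (median log2 2.37 with TMM and 3.65 with spike-in scaling), and the list of 8 summed to 60.3 and 384 TPM. Alb, for serum albumin, stood at 7.29 and 40.3 TPM and Afp, for alpha-fetoprotein, at 22.0 and 165 TPM. Cardiomyocyte markers differed little, with a median log2 of 0.10 and 1 of 5 lower, and they summed to 22798 and 27479 TPM. Actc1, for cardiac actin, stood at 8858 and 10485 TPM. Cushion mesenchyme markers had a median of −0.01 with 3 of 6 lower, and summed to 241 and 262 TPM.

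Markers of the nervous system, where many of the detected Hox genes are best known, were low. None of 8 spinal cord and hindbrain markers passed 1 TPM in both libraries, the list summed to 0.44 and 0.98 TPM, and Olig2, Mnx1 and Sox1 were at 0. Of 10 neural crest and autonomic markers, 4 passed, and the list summed to 13.3 and 16.7 TPM. Among its highest members were the neuronal genes Stmn2, at 4.70 and 6.57 TPM, and Elavl4, at 2.40 and 3.13 TPM, with Gata3 at 2.52 and 2.96 TPM. Scaled counts did not follow TPM here. With TMM scaling Stmn2 and Elavl4 were lower in replicate 2 (log2 −0.52 and −0.14), and Gata3 was higher (0.09). The 4 genes of the list with enough reads had a median of −0.02, 2 of them lower. Sox10, a neural crest and glial factor, stood at 0.34 and 0.35 TPM, and Foxd3 at 0.02 and 0 TPM. Of 6 skeletal muscle markers, Myog alone passed, at 1.15 and 2.90 TPM, and the list summed to 1.95 and 3.65 TPM.

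Among genes that act with or on Hox genes, the share detected varied by list, beside 57.3% of all protein-coding genes. All 9 TALE homeobox cofactors, which bind DNA together with Hox proteins, passed 1 TPM in both libraries, with a median of 14.5 TPM. Meis1 led at 51.0 and 56.3 TPM. Meis2 stood at 23.4 and 26.2 TPM, and Pbx3 at 14.9 and 16.7 TPM. The 8 with enough reads had a median log2 difference of 0.01 with TMM scaling, 4 of them lower.

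Of 18 genes of retinoic acid synthesis and response, 13 passed (median 5.70 TPM). Dhrs3, a retinaldehyde reductase gene, stood at 29.0 and 37.3 TPM. Aldh1a2, for the retinoic acid-producing enzyme of the epicardium, stood at 34.9 and 27.5 TPM (log2 −0.49 with TMM scaling), and the receptor gene Rxrb at 22.1 and 25.7 TPM. Of the 15 with enough reads, 10 were lower in replicate 2, with a median of −0.06. The upstream regulators of Hox genes passed in 3 of 8 cases, among them Zfp703 at 3.32 and 3.99 TPM and Gdf11 at 2.14 and 2.96 TPM. The caudal genes Cdx2 and Cdx4, activators of trunk Hox genes, were at 0, and Cdx1 stood at 0 and 0.09 TPM.

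All 21 Polycomb genes, which repress Hox loci, and all 12 Trithorax MLL genes, which maintain their activity, passed, with medians of 10.1 and 18.8 TPM. The histone-binding subunit genes Rbbp7 and Rbbp4 led the first list at 297 and 337 TPM and at 216 and 242 TPM, and the methyltransferase gene Ezh2 stood at 40.2 and 45.6 TPM. Dpy30 led the second at 108 and 132 TPM, and Kmt2a, for MLL1, stood at 4.28 and 5.02 TPM. Genes flanking the clusters passed in 12 of 17 cases (median 14 TPM), led by Hnrnpa1 at 370 and 404 TPM and Hnrnpa3 at 147 and 157 TPM. The flanking homeobox genes Evx1 and Evx2, next to Hoxa13 and Hoxd13, stood at 0 and 0.08 TPM and at 0. Of 13 other Antennapedia-class homeobox genes, Meox1 (12.1 and 15.9 TPM) and Meox2 (2.58 and 2.15 TPM) passed.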

How the data were processed

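Total RNA of E13.5 heart was measured in 2 libraries of 1 group. The deposited gene and transcript files hold, per the file headers, an expected count for each feature and its TPM, which the authors scaled over all features with spike-ins included. They also hold posterior means and lower and upper credibility bounds for TPM, at a level the headers leave unstated. The deposited transcript files also give a percent per transcript, its part of the gene's total. Per the labels the assembly is mm10, and per the deposited file descriptions the annotation is M4. The aligner and the quantifier were not given in the sources used here.

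Genes were matched by identifier, versions dropped, to GENCODE M21 (GRCm38), and 42462 of 43346 Ensembl genes matched. The libraries were scaled after rounding of expected counts, with edgeR 4.0.16 (TMM) or, as an alternative, DESeq2 1.42.0 size factors in R 4.3.3, and the scaling was tested on simulated data. Log2 differences used 0.5 added to scaled counts. Pairs were called separate when their credibility intervals did not overlap in either library and the order was the same. Counting intervals (95%, exact) and the floor of 3 reads cover counting error only, as the reads carry no molecular identifiers and are not independent molecules. For estimated counts they are approximate. TPM falls in every other gene when spike-ins rise. Other steps used Python 3.11.15, pandas 2.3.3, scipy 1.17.1 and matplotlib 3.10.9.

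The members, gene lists and alternatives were chosen with earlier results of these data known. Named were the Hox genes with values, the top 4 genes or fewer of a list and its genes under 1 TPM if at most 4, the leading transcripts of detected genes and non-coding genes in the clusters at 1 TPM or more. Names outside this rule were chosen after their values were seen: Ezh2, Kmt2a, Nkx2-1, Sox10, Foxd3, Cdx1, Cdx2, Cdx4, Evx1, Evx2, Olig2, Mnx1, Sox1, Pax2 and Tbx18. The list entries Znf503 and Lnp did not match a symbol. Some genes and sequences that these rules name are left out here, also from the plots.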

Additional observations from a re-analysis of the deposited data

How the results depend on the processing

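The number of detected genes moved from 5 to 9 at 0.5 TPM, 3 at 2 TPM, 0 at 5 TPM, 3 with the lower credibility bound in place of TPM and 14 with at least 10 reads in both libraries. It was 6 with posterior means, 7 with TPM rescaled without spike-ins, 5 with protein-coding transcripts alone, and 5 to 7 when either library was left out. Hoxa5, Hoxb2 and Hoxb5 were in each of these sets except that at 5 TPM, which was empty and gave no end of detection. The last detected paralogue of the Hoxa cluster moved from 5 to 7 with at least 10 reads, and that of the Hoxb cluster from 6 to 5 at 2 TPM and with the lower bound. Without replicate 1 or 2 these were 5 and 6. In the Hoxc and Hoxd clusters the count moved from 0 to 1 at 0.5 TPM and 3 with at least 10 reads, and was 0 to 1 when a library was left out (Hoxc5 in replicate 1). Separated pairs moved from 20 to 35 when a 2-fold difference replaced the intervals, and numbered 22 to 26 when a library was left out. The median difference between the libraries, −0.71, turned to 0.57 with spike-in scaling. It stayed between −0.72 and −0.61 under the other 6 alternatives, 1 of which, the summed counts, was chosen after seeing the data. A minimum mean of 200 reads gave no value, since no Hox gene reaches it. No paired analysis was possible because the samples form 1 group. Depth limits the low genes: at 1 TPM a Hox gene had a median of 53.0 and 51.9 reads.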
